A study of Homo sapiens with 3 samples.

Results

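The semaphorin ligands, their plexin receptors and the neuropilin coreceptors were examined gene by gene in Cal62 thyroid cancer cells silenced for ADAR1. Members were the protein-coding genes whose symbols follow the family names SEMA3 to SEMA7, PLXNA to PLXND and NRP, which gave 31 of the 58333 genes of the table: 20 semaphorins, 9 plexins and 2 neuropilins. The family was taken up because SEMA3F differed between the siRNAs, so the values of SEMA3F are described without a test. Cal62 is an established human line from an anaplastic thyroid carcinoma, grown in DMEM with fetal bovine serum. The cells received, with Lipofectamine RNAimax, either the Silencer Select Negative Control #1 siRNA (siControl) or 1 of 2 siRNAs against ADAR1 (siADAR1 #1 and siADAR1 #2), so all groups share the line and the transfection. ADAR1, encoded by ADAR, converts adenosine to inosine in double-stranded RNA. Libraries were made from poly(A)+ RNA and read in 75-bp pairs, and the question was how expression changes when ADAR1 is silenced. Each transfection has 1 sample in the labels and 2 columns in the table, which were treated as the 2 biological replicates given in the study's methods. There were thus 6 libraries from 1 line, and the time between transfection and RNA isolation was not given in the sources used here.

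Semaphorins are secreted or membrane-bound guidance proteins named for the sema domain that they share with plexins. Plexins carry signals into the cell through an intracellular GTPase-activating domain that acts on small GTPases of the Ras and Rap group, and through partners that act on the actin cytoskeleton and integrin adhesion. Most secreted class 3 semaphorins bind a neuropilin, which pairs with a class A plexin, whereas the semaphorins of the other classes bind plexins directly. First described in axon guidance, the system is also known for its part in the migration, adhesion and invasion of epithelial tumor cells and in the growth of vessels.

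Levels are given as normalized counts, that is, reads divided by the size factor of the library, and as normalized counts per kb of exon where genes are compared with each other. Counted reads ranged from 30114840 to 50029763 per library. ADAR had 11304 ± 562 normalized counts (SD, n = 2) in siControl, 1787 ± 649 in siADAR1 #1 and 2296 ± 894 in siADAR1 #2, with no overlap between siControl and the siADAR1 libraries. Of 10 thyroid markers, 7 passed the filter on low values: PAX8 and HHEX were abundant, TG had 0 to 55 reads, and NKX2-1 was at 0 in all 6 libraries. The summed level of the thyroid list was 16312 to 18168 normalized counts in siControl, 12883 to 17820 in siADAR1 #1 and 4705 to 7488 in siADAR1 #2. PAX8 made up most of this sum, with means of 14897, 12673 and 4013, and FOXE1 was also lower (200, 106 and 83). TSHR and TG instead had their highest means with siADAR1 #2 (101 and 48.8). All 5 epithelial markers were expressed, with sums of 74103 to 92785, 102317 to 106204 and 67785 to 77725. KRT18 (means of 43677, 60405 and 24166) and KRT8 (34919, 38454 and 39564) made up most of these sums. With siADAR1 #2 the sum thus hides moves in opposite directions. KRT19 had means of 2919, 3324 and 6655.5, EPCAM 1804, 2026 and 2253, and CDH1 125, 51.2 and 116. The markers of endothelium (2 of 5 passed) summed to 38.8 to 70.8 normalized counts in siControl, 40.2 to 59.1 with siADAR1 #1 and 45.4 to 74.8 with siADAR1 #2. Those of neurons (4 of 5 passed) summed to 151 to 174, 236 to 249 and 171 to 204. Those of blood cells (1 of 5 passed, CD14) summed to 39.8 to 47.9, 124 to 134 and 27.2 to 30.8. Both sums were highest with siADAR1 #1. In the neuron list this held for SNAP25 (means of 63.7, 151 and 12.7). SYP and SYT1 had their highest means with siADAR1 #2 (88.4 and 58.4) and RBFOX3 in siControl (31.5). CD3E was at 0 throughout. Those of fibroblasts (1 of 5 passed, COL1A1) summed to 5561 to 6859 in siControl, 3269.8 to 3902 with siADAR1 #1 and 2789.5 to 3890.4 with siADAR1 #2. The part of these marker differences in the results below was not tested.

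Of the 31 members, 26 passed the filter set on the mean of the 6 libraries and were tested: 16 semaphorins, 8 plexins and both neuropilins. SEMA7A, a GPI-anchored semaphorin that binds plexin C1 and integrin beta 1, had the most transcript per kb in siControl, at 6149 and 3448 normalized counts per kb in the 2 libraries. PLXNB2, SEMA4B and PLXNA1 followed with means of 1220.1, 1051 and 938 per kb. Their libraries overlapped in rank order, so these neighbours did not differ beyond their spread. PLXNA2 came next with 581 per kb, then NRP2 with 431, NRP1 with 282 and SEMA4F with 261, and the libraries of neighbours did not overlap in these steps from PLXNA2 to SEMA4F. SEMA4C had 237 per kb, and SEMA4D, SEMA3C, PLXNA3, PLXND1, SEMA3F and SEMA6B formed a run between 156 and 89.9 in which each overlapped the next. PLXNB1 had 82.1, SEMA3A 61.0 and PLXNC1 52.5 per kb, and PLXNB3 and SEMA4G lay at 29.1 and 26.0. The other members tested (SEMA6C, SEMA3D, SEMA3E, SEMA6A, SEMA5A and SEMA3B) had between 8.12 and 2.85 per kb. Together the 31 members took 0.156% and 0.140% of the reads of siControl, 0.0893% and 0.114% of those of siADAR1 #1, and 0.125% and 0.122% of those of siADAR1 #2.

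**Figure D1:**
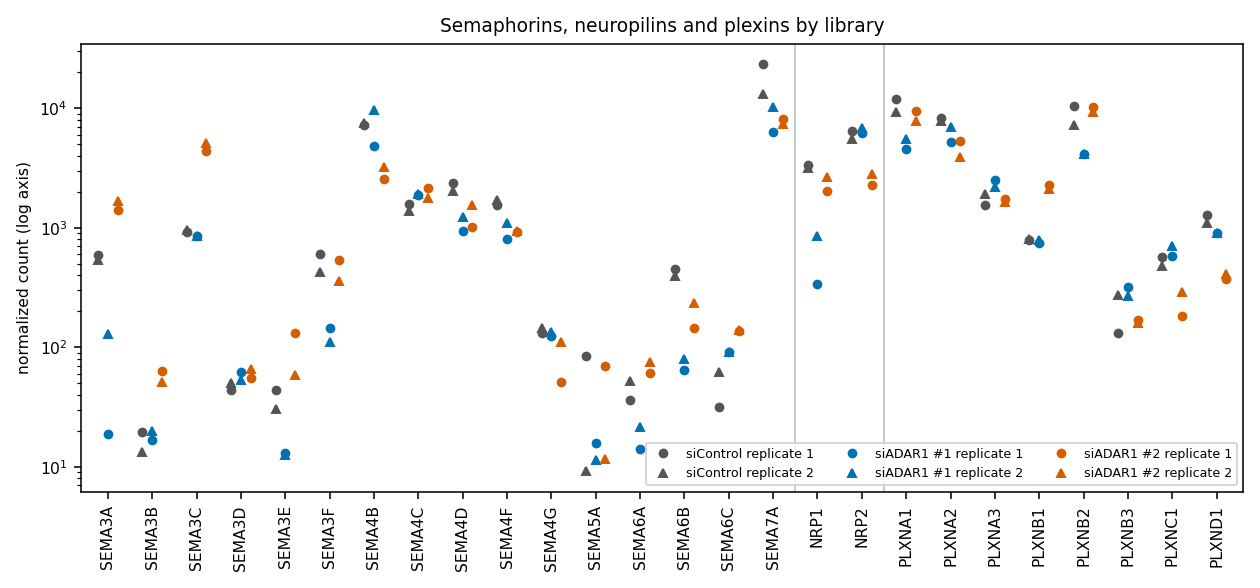
Normalized counts (log axis) of the 26 members tested, with 1 point per library; circles are replicate 1 and triangles replicate 2, in gray for siControl, blue for siADAR1 #1 and orange for siADAR1 #2. SEMA3A runs from 18.7 in a siADAR1 #1 library to 1680 in a siADAR1 #2 library, and SEMA5A separates by library within siControl and within siADAR1 #2.

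The 5 members under the filter had few reads. PLXNA4, a class A plexin of neurons, had 19 and 14 reads in siControl, 2 and 1 with siADAR1 #1, and 3 and 2 with siADAR1 #2. The 4 siADAR1 libraries were all under both siControl values, and with no filter PLXNA4 was called with siADAR1 #1 (log2FC -2.43, limma, adjusted p = 0.0323) but not with siADAR1 #2 (log2FC -1.86, adjusted p = 0.0516). SEMA3G, a class 3 ligand of vessels, had 1 and 3 reads in siControl, 15 and 11 with siADAR1 #1, and 2 and 7 with siADAR1 #2. SEMA4A, a class 4 ligand of immune cells, had 5 and 3, then 2 and 0, then 13 and 9 reads. SEMA5B had 1 to 7 reads and SEMA6D 0 to 9 reads per library. A count of 0 allows up to 3 reads, which are 2.81 to 4.39 normalized counts depending on the library. This limit covers counting error only, and no fold is given for SEMA6D, which was at 0 in both siControl libraries.

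The change of each member was tested with limma against siControl, and a gene was called at an adjusted p under 0.05 with a log2FC beyond 0.5. The log2FC is a difference of mean variance-stabilized log2 values and understates the change of genes with few reads. With siADAR1 #1, 8 of the 25 members other than SEMA3F were called (32.0%), against 16.8% of all 20858 genes tested. All 8 were downregulated and 0 upregulated, where 10.6% of all genes were called lower and 6.18% higher. They were the ligands SEMA3A, SEMA4D, SEMA4F, SEMA6B and SEMA7A, the coreceptor NRP1 and the receptors PLXNA1 and PLXNB2. The median log2FC of the 25 members was -0.38, against -0.02 over all genes tested.

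With siADAR1 #2, 13 of the 25 members were called (52.0%), against 26.6% of all genes tested. The 9 downregulated members were SEMA4B, SEMA4D, SEMA4F, SEMA6B, SEMA7A, NRP2, PLXNA2, PLXNC1 and PLXND1, where 15.5% of all genes were called lower. The 4 upregulated members were SEMA3B, SEMA3C, SEMA6C and PLXNB1, where 11.1% of all genes were called higher. The median log2FC of the members was -0.22, against -0.01 over all genes. The comparisons share the siControl libraries, so the lists are set side by side and were not tested against each other. These are bulk libraries, in which fewer cells that carry a transcript and less of it per cell cannot be told apart, and p-values measure the spread between 2 libraries per condition.

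The number of calls depended on single libraries. Here and for the lists below, the share of all genes called in such fits was not counted. Without siControl replicate 1, 2 members were called with siADAR1 #1 (PLXNB2 and SEMA6B) and 5 with siADAR1 #2 (NRP2, PLXNB1, PLXND1, SEMA3B and SEMA3C). Leaving out siControl replicate 2 gave 5 and 7 calls, siADAR1 #1 replicate 1 gave 5 with that siRNA, and siADAR1 #2 replicate 1 gave 5 with the other. The calls lost in these fits had adjusted p-values between 0.0522 and 0.197. SEMA6B with siADAR1 #1, and NRP2, PLXNB1, PLXND1 and SEMA3C with siADAR1 #2, were called in all 17 settings tried.

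**Figure D2:**
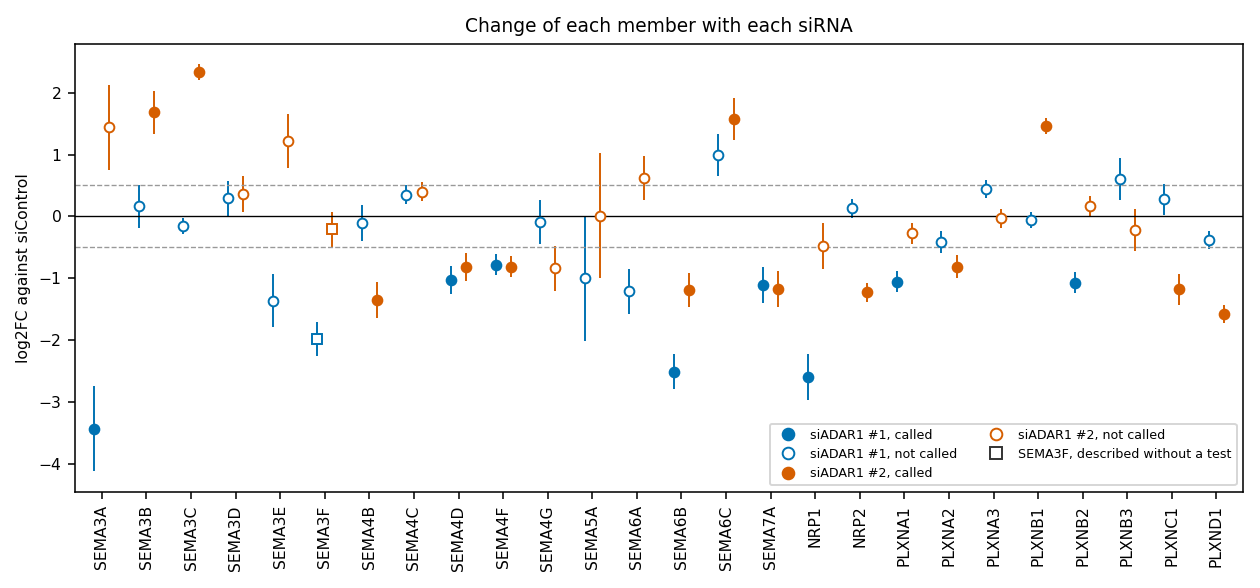
Log2FC of the 26 members tested against siControl, with bars for the standard error of the fit, in blue for siADAR1 #1 and orange for siADAR1 #2; filled points were called, dashed lines mark a log2FC of 0.5 in each direction, and SEMA3F (squares) was not tested. SEMA4D, SEMA4F, SEMA6B and SEMA7A are filled on the lower side with each siRNA, and SEMA3A lies at -3.43 with siADAR1 #1 and 1.44 with siADAR1 #2.

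Among the secreted class 3 ligands, SEMA3F, which signals mainly through NRP2 and repels tumor and endothelial cells, is the gene for which the family was chosen. It had 604 and 429 normalized counts in the siControl libraries, 146 and 110.5 with siADAR1 #1, and 542 and 357 with siADAR1 #2. The siADAR1 #1 libraries lay below all others, and those of siADAR1 #2 overlapped siControl. The log2FC was -1.98 ± 0.28 (SE) with siADAR1 #1 and -0.21 ± 0.28 with siADAR1 #2, as a description. An antisense gene, SEMA3F-AS1, had 35 and 53 reads in siControl, 54 and 42 with siADAR1 #1 and 54 and 43 with siADAR1 #2, and whether the counting used strand was not given in the sources used here.

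SEMA3A, the NRP1 ligand known for collapsing growth cones, had 588 and 541 normalized counts in siControl. It had 18.7 and 128 with siADAR1 #1 and 1406 and 1680.1 with siADAR1 #2. The libraries of siADAR1 #1 were thus the lowest and those of siADAR1 #2 the highest, with no overlap between the 3 groups. SEMA3A fell with siADAR1 #1 (log2FC -3.43 ± 0.69, limma, adjusted p = 0.0146), while its difference with siADAR1 #2 did not pass the test (log2FC 1.44 ± 0.69, adjusted p = 0.157). The gap between the siADAR1 #1 libraries enters the spread of this fit, and the log2FC with siADAR1 #1 was -2.12 without its replicate 1 and -4.74 without its replicate 2. With only the 4 libraries of siControl and siADAR1 #2 the adjusted p was 0.000916, and without siADAR1 #1 replicate 1 or replicate 2 it was 0.00119 or 0.00142. The fall with siADAR1 #1 was not called without siControl replicate 1 (adjusted p = 0.107) or replicate 2 (adjusted p = 0.0887), nor with robust eBayes (adjusted p = 0.0947) or without a trend (adjusted p = 0.0715), over a range of 0.000157 to 0.107 in all settings.

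SEMA3C, a ligand of both neuropilins linked to the growth and migration of carcinoma cells, had 922 and 962 normalized counts in siControl and 853 and 848 with siADAR1 #1. With siADAR1 #2 it had 4430.3 and 5078. It rose with siADAR1 #2 to 5.05 times the siControl mean (log2FC 2.33 ± 0.13, limma, adjusted p = 0.000249), the largest log2FC of any member with that siRNA. With siADAR1 #1 the log2FC was -0.15 ± 0.13 (adjusted p = 0.482), and it had the opposite sign after quantile normalization.

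SEMA3B, a class 3 ligand described as a tumor suppressor, had few reads, with 19.6 and 13.3 normalized counts in siControl and 16.8 and 20.1 with siADAR1 #1. In siADAR1 #2 it had 63.5 and 51.3, above all other libraries, and it was upregulated (log2FC 1.68 ± 0.35, limma, adjusted p = 0.00993). Without siControl replicate 2 or siADAR1 #2 replicate 1 this call was lost (adjusted p = 0.0603 and 0.0682). SEMA3E, which binds plexin D1 without a neuropilin, had 43.6 and 30.6 in siControl, 13.1 and 12.6 with siADAR1 #1, and 133 and 58.6 with siADAR1 #2. Its libraries were lowest with siADAR1 #1 and highest with siADAR1 #2, but neither difference passed the test (log2FC -1.36 ± 0.43, adjusted p = 0.067, and 1.22 ± 0.43, adjusted p = 0.0698). Blocked by replicate number, they had adjusted p-values of 0.0368 and 0.0396. Leaving out siADAR1 #2 replicate 1 or 2 gave 0.0442 or 0.0408 with siADAR1 #1, and leaving out siADAR1 #2 replicate 2 gave 0.0245 with siADAR1 #2. SEMA3D had between 43.6 and 65.9 normalized counts in every library, with log2FC values of 0.29 ± 0.29 and 0.36 ± 0.29.

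SEMA3C, SEMA3E, SEMA3A and SEMA3D lie in this order on the reverse strand of chromosome 7 (GRCh38, GENCODE 44), with SEMA3C at chr7:80742538-80922359, SEMA3E at chr7:83363238-83649139, SEMA3A at chr7:83955777-84492724 and SEMA3D at chr7:84995553-85187056. The log2 difference (siADAR1 #1 minus siADAR1 #2) was -2.48 ± 0.13 (SE) for SEMA3C, -2.57 ± 0.43 for SEMA3E, -4.87 ± 0.69 for SEMA3A and -0.07 ± 0.29 for SEMA3D. As a ratio of mean normalized counts, SEMA3A was 21.0 times higher with siADAR1 #2, and 12 to 82.5 times with any 1 of these 4 libraries left out. These values are descriptions, since the family was chosen on the difference between the siRNAs. Summed per kb, the class 3 ligands, with SEMA3F included, had 354 and 318 in siControl, 187 and 189.8 with siADAR1 #1, and 1024 and 1114 with siADAR1 #2. SEMA3F alone had 125 and 89.0, 30.2 and 22.9, and 112 and 74.1 per kb in these libraries. The sums thus hold values on which the family was chosen and are descriptions too. SEMA3C made up most of the sum with siADAR1 #2, at 726 and 833 per kb.

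The class 4 semaphorins span the membrane, and 5 of 6 were tested. SEMA4D, the ligand of plexin B1 known as CD100, had 2385 and 2043 normalized counts in siControl, 942 and 1229.8 with siADAR1 #1, and 1014 and 1549.7 with siADAR1 #2. SEMA4F, found in neurons and in tumors, had 1547 and 1703 in siControl, 805 and 1102 with siADAR1 #1, and 922 and 932 with siADAR1 #2. In either gene the 4 siADAR1 libraries were lower than siControl without overlap. SEMA4D was downregulated with siADAR1 #1 (log2FC -1.03 ± 0.23, limma, adjusted p = 0.0188) and with siADAR1 #2 (log2FC -0.82 ± 0.23, adjusted p = 0.0289). SEMA4F fell by a log2FC of -0.78 ± 0.17 (adjusted p = 0.0199) and -0.81 ± 0.17 (adjusted p = 0.0106). Leaving out either siControl library, or replicate 1 of the siRNA in question, ended each of these calls, with adjusted p-values of 0.0793 to 0.172 for SEMA4D and 0.0542 to 0.117 for SEMA4F. Without siADAR1 #2 replicate 1 the log2FC of SEMA4D with siADAR1 #2 was -0.51.

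SEMA4B, the most abundant of class 4, had 7229.7 and 7467 normalized counts in siControl, 4805 and 9692 with siADAR1 #1, and 2582 and 3199 with siADAR1 #2. It was downregulated with siADAR1 #2 (log2FC -1.35 ± 0.29, limma, adjusted p = 0.00985). The siADAR1 #1 libraries lay on either side of siControl, so that the log2FC of -0.11 ± 0.29 turned to 0.40 without replicate 1 and to -0.61 without replicate 2, the latter with an adjusted p of 0.0423. Without siControl replicate 1, siControl replicate 2 or siADAR1 #2 replicate 1, the fall with siADAR1 #2 had adjusted p-values of 0.07, 0.0684 and 0.0601. SEMA4C, a ligand of plexin B2, had 1588 and 1380.0 in siControl, 1873 and 1908 with siADAR1 #1, and 2149 and 1768 with siADAR1 #2. Its siADAR1 libraries were all above siControl, with log2FC values of 0.35 ± 0.15 (adjusted p = 0.137) and 0.40 ± 0.15 (adjusted p = 0.0769). SEMA4G had 132 and 144 in siControl, 125 and 133 with siADAR1 #1, and 51.0 and 111 with siADAR1 #2. The difference with siADAR1 #2 (log2FC -0.84 ± 0.36) had an adjusted p of 0.118, or 0.0181 without siADAR1 #2 replicate 2.

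The class 5 gene SEMA5A, whose protein binds plexin B3, had 84.9 and 9.18 normalized counts in siControl, 15.9 and 11.3 with siADAR1 #1, and 70.3 and 11.7 with siADAR1 #2. Replicate 1 of siControl and of siADAR1 #2 stood above the other 4 libraries, and the log2FC values of -1.0 and 0.01 had a standard error of 1.01.

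Of the class 6 transmembrane ligands, SEMA6B, described as a ligand of plexin A4, had with siADAR1 #1 the largest fall among the members called with each siRNA. It had 454 and 393 normalized counts in siControl, 64.5 and 80.4 with siADAR1 #1, and 144 and 233 with siADAR1 #2. The 3 groups did not overlap. SEMA6B fell to 17.1% of the siControl mean with siADAR1 #1 (log2FC -2.51 ± 0.28, limma, adjusted p = 0.00296) and to 44.5% with siADAR1 #2 (log2FC -1.19 ± 0.28, adjusted p = 0.0155). The call with siADAR1 #2 was lost without siControl replicate 1 (adjusted p = 0.107), siControl replicate 2 (0.0637) or siADAR1 #2 replicate 1 (0.0939).

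SEMA6C had 31.6 and 62.2 normalized counts in siControl, 91.6 and 91.7 with siADAR1 #1, and 137 and 139 with siADAR1 #2. All siADAR1 libraries were above both siControl libraries, and SEMA6C was upregulated with siADAR1 #2 (log2FC 1.58 ± 0.34, limma, adjusted p = 0.0105), but not past the test with siADAR1 #1 (log2FC 1.00 ± 0.34, adjusted p = 0.0792). Without siControl replicate 1 or siADAR1 #2 replicate 1 the adjusted p with siADAR1 #2 was 0.054 or 0.0522. SEMA6A, a ligand of plexins A2 and A4, had 35.9 and 52.0 in siControl, 14.0 and 21.4 with siADAR1 #1, and 61.2 and 74.7 with siADAR1 #2. Its libraries were again lowest with siADAR1 #1 and highest with siADAR1 #2, and neither difference passed the test (log2FC -1.21 ± 0.36, adjusted p = 0.0519, and 0.62 ± 0.36, adjusted p = 0.238). Blocked by replicate number, the adjusted p with siADAR1 #1 was 0.0322.

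SEMA7A had 23367 and 13101 normalized counts in siControl, 6359 and 10293 with siADAR1 #1, and 8179 and 7319.5 with siADAR1 #2. All siADAR1 libraries were below both siControl libraries, which themselves differed from each other by more than the siADAR1 #2 libraries did. SEMA7A was downregulated with siADAR1 #1 (log2FC -1.11 ± 0.29, limma, adjusted p = 0.0357) and siADAR1 #2 (log2FC -1.18 ± 0.29, adjusted p = 0.0194). Without siControl replicate 1 the log2FC values were -0.70 (adjusted p = 0.197) and -0.76 (adjusted p = 0.124). The call with siADAR1 #1 was also lost without its replicate 1 (adjusted p = 0.183), and that with siADAR1 #2 without its replicate 1 (0.0617) or replicate 2 (0.0738). Robust eBayes (adjusted p = 0.108 and 0.0724) and eBayes without a trend (adjusted p = 0.123 and 0.0791) ended each call, and testing with no filter ended that with siADAR1 #1 (adjusted p = 0.0688).

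**Figure D3:**
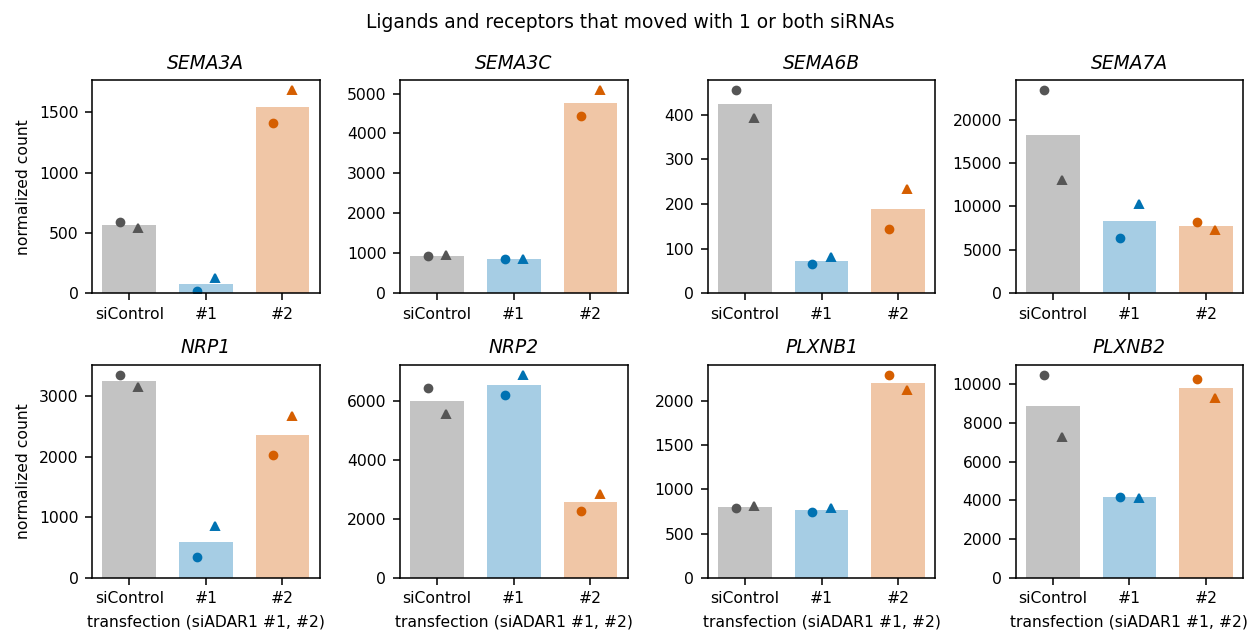
Normalized counts of 4 ligands and 4 receptors in siControl, siADAR1 #1 and siADAR1 #2; bars are means of 2 libraries and start at 0, circles are replicate 1 and triangles replicate 2. SEMA3C and PLXNB1 stand apart with siADAR1 #2 (means of 4754 and 2206), NRP1 and PLXNB2 with siADAR1 #1 (means of 596 and 4149.5), and SEMA6B and SEMA7A are lower with each siRNA.

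Sequence upstream of the genes that fell with each siRNA is shown for members called lower in each comparison, which share the siControl libraries. RefSeq windows (GRCh38.p14) were found for 27 member genes, with 48 starts, and among them for SEMA4D, SEMA4F and SEMA7A; SEMA6B was not matched. Each line gives the 250 bases before the first start of the gene in that table, 5′ to 3′ on its own strand, at chr9:89495657-89495906 (reverse strand) for SEMA4D, chr2:74653997-74654246 (forward strand) for SEMA4F and chr15:74433959-74434208 (reverse strand) for SEMA7A. Capitals mark matches, on either strand, to the GC box (letters GGGCGG), the CCAAT box (CCAAT), the TATA box (TATAAA), an E-box (CACGTG), the AP-1 motif (TGANTCA) or the CRE core site (TGACGT).
SEMA4D: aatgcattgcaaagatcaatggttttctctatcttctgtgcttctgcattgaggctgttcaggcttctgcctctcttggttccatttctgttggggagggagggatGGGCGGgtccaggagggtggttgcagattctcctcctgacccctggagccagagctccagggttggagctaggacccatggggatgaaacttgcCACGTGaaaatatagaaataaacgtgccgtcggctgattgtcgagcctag
SEMA4F: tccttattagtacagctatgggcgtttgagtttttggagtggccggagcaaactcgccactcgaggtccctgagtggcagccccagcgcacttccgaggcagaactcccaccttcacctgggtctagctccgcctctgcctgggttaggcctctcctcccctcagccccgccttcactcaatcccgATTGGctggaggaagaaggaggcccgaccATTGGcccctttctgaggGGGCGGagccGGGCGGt
SEMA7A: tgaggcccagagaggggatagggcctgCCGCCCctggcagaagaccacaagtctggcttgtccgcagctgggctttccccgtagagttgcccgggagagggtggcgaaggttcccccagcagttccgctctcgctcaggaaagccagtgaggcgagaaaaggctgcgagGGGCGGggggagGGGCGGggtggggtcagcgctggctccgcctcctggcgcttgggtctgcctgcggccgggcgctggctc
The GC content was 52.4%, 62.4% and 70.0%, against a median of 64.8% over the member windows and 58.0% over all 35116 windows of the table. The GC box matched 1 time in SEMA4D, 2 times in SEMA4F and 3 times in SEMA7A. This motif was in 62.5% of the member windows and 42.6% of all windows. The CCAAT box matched 2 times in SEMA4F, on the opposite strand, and was in 22.9% of member windows and 32.0% of all. The E-box matched 1 time in SEMA4D and was in 6.25% and 6.34%. The TATA box, the AP-1 motif and the CRE core site had 0 matches in the 3 windows and were in 10.7%, 6.57% and 7.10% of all windows. Overlapping matches were counted, a match is a description of letters only, and 2 starts of a gene can share bases.

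The neuropilins, which bind class 3 semaphorins and vascular endothelial growth factors, were each called lower with 1 siRNA, NRP1 with siADAR1 #1 and NRP2 with siADAR1 #2. NRP1 had 3353 and 3154 normalized counts in siControl, 337 and 855 with siADAR1 #1, and 2034 and 2679 with siADAR1 #2. NRP2 had 6426 and 5554 in siControl, 6177 and 6872 with siADAR1 #1, and 2277 and 2829.9 with siADAR1 #2. For NRP1 the siADAR1 #1 libraries were the lowest and for NRP2 those of siADAR1 #2, in neither case with overlap. NRP1 fell to 18.3% of the siControl mean with siADAR1 #1 (log2FC -2.59 ± 0.37, limma, adjusted p = 0.00511), and its log2FC with siADAR1 #2 was -0.48 ± 0.37 (adjusted p = 0.383). NRP2 fell to 42.6% with siADAR1 #2 (log2FC -1.23 ± 0.15, adjusted p = 0.000938), and its log2FC with siADAR1 #1 was 0.13 ± 0.15 (adjusted p = 0.605). The call of NRP1 was lost only without siControl replicate 1 (log2FC -2.55, adjusted p = 0.0616) among the 17 settings, and its log2FC was -1.92 without siADAR1 #1 replicate 1 and -3.26 without replicate 2. Of the neuropilin transcript per kb, NRP1 made up 38.6% and 40.6% in siControl, 6.17% and 13.1% with siADAR1 #1, and 51.9% and 53.3% with siADAR1 #2.

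The class A plexins pair with neuropilins. PLXNA1 had 11855 and 9228 normalized counts in siControl, 4539 and 5518 with siADAR1 #1, and 9568 and 7866 with siADAR1 #2. It fell with siADAR1 #1, whose libraries lay below all others (log2FC -1.06 ± 0.17, limma, adjusted p = 0.00686), and was not called without siControl replicate 1 (adjusted p = 0.063). PLXNA2 had 8232 and 7856 in siControl, 5264 and 6943 with siADAR1 #1, and 5356 and 3912 with siADAR1 #2. All siADAR1 libraries were below siControl, and the fall passed the test with siADAR1 #2 (log2FC -0.81 ± 0.18, adjusted p = 0.0129) but not with siADAR1 #1 (log2FC -0.41 ± 0.18, adjusted p = 0.164). The call with siADAR1 #2 was lost without siControl replicate 1 (0.0879), siControl replicate 2 (0.0644) or siADAR1 #2 replicate 2 (adjusted p = 0.0673). PLXNA3 had 1549 and 1918 in siControl, 2488 and 2202 with siADAR1 #1, and 1726 and 1658 with siADAR1 #2. Its siADAR1 #1 libraries were above siControl (log2FC 0.44 ± 0.15, adjusted p = 0.0743), and with median-centred libraries this became a call (log2FC 0.59, adjusted p = 0.0463).

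The class B plexins bind class 4 semaphorins and can associate with the receptors MET and ERBB2. PLXNB1, the receptor of SEMA4D, had 792 and 813 normalized counts in siControl, 748 and 790.1 with siADAR1 #1, and 2294 and 2118 with siADAR1 #2. It rose to 2.75 times the siControl mean with siADAR1 #2 (log2FC 1.46 ± 0.13, limma, adjusted p = 0.000412), and was the plexin that rose among the 8 tested. With siADAR1 #1 the log2FC was -0.06 ± 0.13, which turned to 0.08 after median centring and 0.12 after quantile normalization. PLXNB2 had 10473 and 7269 in siControl, 4173 and 4126 with siADAR1 #1, and 10274 and 9282 with siADAR1 #2. It fell with siADAR1 #1, whose libraries lay below all others (log2FC -1.07 ± 0.17, adjusted p = 0.00693), and its libraries with siADAR1 #2 overlapped siControl (log2FC 0.16 ± 0.17). PLXNB3 had 131 and 276 in siControl, 319.8 and 266 with siADAR1 #1, and 169 and 158 with siADAR1 #2. With such a spread in siControl neither difference passed the test (adjusted p = 0.256 and 0.681).

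PLXNC1, the receptor of SEMA7A, had 574 and 479 normalized counts in siControl, 583 and 701 with siADAR1 #1, and 181 and 293 with siADAR1 #2. PLXND1, the receptor of SEMA3E, had 1274 and 1093 in siControl, 913 and 901 with siADAR1 #1, and 374 and 410.1 with siADAR1 #2. In both genes the siADAR1 #2 libraries were the lowest. PLXNC1 fell with siADAR1 #2 (log2FC -1.18 ± 0.25, limma, adjusted p = 0.0105), a call lost without siControl replicate 1 (adjusted p = 0.0878) or siADAR1 #2 replicate 1 (0.0556), and its log2FC with siADAR1 #1 was 0.28 ± 0.25. PLXND1 fell to 33.1% of the siControl mean with siADAR1 #2 (log2FC -1.58 ± 0.15, adjusted p = 0.000488), and had a log2FC of -0.38 ± 0.15 with siADAR1 #1 (adjusted p = 0.128).

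Set directly against each other, the siRNAs gave levels that differed by more than 1 on the log2 scale for 15 of the 26 members, where 23.0% of all genes tested did. Because the rule for the family used this contrast, the count is a description and no result beside the share of all genes. It includes SEMA3F, for which the family was chosen, and SEMA5A, whose difference was -1.02 ± 1.01. With siADAR1 #2, 11 of these members were higher: NRP1, PLXNB1, PLXNB2, SEMA3A, SEMA3B, SEMA3C, SEMA3E, SEMA3F, SEMA5A, SEMA6A and SEMA6B. With siADAR1 #1, 4 were higher: NRP2, PLXNC1, PLXND1 and SEMA4B. The largest gap was that of SEMA3A, with a log2 difference (siADAR1 #1 minus siADAR1 #2) of -4.87 ± 0.69, and those of SEMA3E, SEMA3C, NRP1, SEMA6A and SEMA3F were -2.57, -2.48, -2.12, -1.82 and -1.77. In the other direction PLXNC1 had 1.46 ± 0.25 and NRP2 1.36 ± 0.15. The libraries of the siRNAs overlapped for 7 members (PLXNA2, SEMA3D, SEMA4C, SEMA4D, SEMA4F, SEMA5A and SEMA7A). Over all genes tested, the share with such an overlap was not counted. SEMA4D, SEMA4F and SEMA7A, which fell with each siRNA, had differences of -0.22 ± 0.23, 0.02 ± 0.17 and 0.06 ± 0.29.

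The genes around the family were taken from lists of its coreceptors, alternative ligands, proteases and signal transducers. These lists were chosen with earlier results of these data known, so their shares of calls beside those of all genes are descriptions. Of 32 coreceptor, ligand and protease genes, 27 were tested. With siADAR1 #1, 5 were called (18.5%, against 16.8% of all genes), 3 upregulated and 2 downregulated, and with siADAR1 #2, 10 (37.0%, against 26.6%), 7 upregulated and 3 downregulated. MET, the receptor of hepatocyte growth factor that can associate with class B plexins, had 9673 ± 1692 normalized counts (SD, n = 2) in siControl, 30504 ± 1555 with siADAR1 #1 and 25932 ± 2217 with siADAR1 #2. It rose with each siRNA (log2FC 1.67 ± 0.14, limma, adjusted p = 0.00199, and 1.43 ± 0.14, adjusted p = 0.000512). MST1R, the related receptor RON, had 46.0 ± 5.85 in siControl and 624 ± 199 with siADAR1 #2 (log2FC 3.66 ± 0.45, adjusted p = 0.00111), but 28.2 ± 18.7 with siADAR1 #1 (log2FC -0.80 ± 0.45, adjusted p = 0.263).

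ITGA1, an integrin alpha chain that pairs with the integrin beta 1 chain bound by SEMA7A, fell from 1105 ± 34 normalized counts to 236 ± 53.4 with siADAR1 #1 (log2FC -2.23 ± 0.22, limma, adjusted p = 0.00249) and 505 ± 114 with siADAR1 #2 (log2FC -1.14 ± 0.22, adjusted p = 0.00727). MMP14, a membrane protease that can shed SEMA4D, fell from 17767 ± 2538 to 8796 ± 1694 with siADAR1 #1 (log2FC -1.02 ± 0.16, adjusted p = 0.00726) and 9881 ± 889 with siADAR1 #2 (log2FC -0.84 ± 0.16, adjusted p = 0.00698). VEGFA, a growth factor that also binds neuropilins, rose with each siRNA (log2FC 0.73 ± 0.15, adjusted p = 0.015, and 0.79 ± 0.15, adjusted p = 0.00564). GIPC1, an adaptor of the NRP1 tail, rose with siADAR1 #2 (log2FC 0.59 ± 0.11, adjusted p = 0.00678) and had a log2FC of -0.27 ± 0.11 with siADAR1 #1 (adjusted p = 0.153). Without siControl replicate 1 the calls of MMP14 (0.0678) and VEGFA (0.0527) with siADAR1 #1 were lost, as was that of VEGFA without siControl replicate 2 (0.0868) and that of GIPC1 without siADAR1 #2 replicate 1 (adjusted p = 0.0528). With siADAR1 #2, ITGA1 and MMP14 were not called without siControl replicate 1 (adjusted p = 0.0627 and 0.0621) or siADAR1 #2 replicate 1 (adjusted p = 0.0505 and 0.052). Over the list, leaving out 1 library gave 2 to 5 calls with siADAR1 #1 and 3 to 10 with siADAR1 #2, the lowest without siControl replicate 1 and without siADAR1 #2 replicate 1.

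Of 48 signal transduction genes, 47 were tested. With siADAR1 #1, 20 were called (42.6%, against 16.8% of all genes), 4 upregulated and 16 downregulated. With siADAR1 #2, 19 were called (40.4%, against 26.6%), 6 upregulated and 13 downregulated. The medians of the list were near those of all genes with siADAR1 #1 (-0.04 against -0.02) and lower with siADAR1 #2 (-0.23 against -0.01). Without siControl replicate 1 the list had 7 calls with siADAR1 #1.

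LIMK1, the kinase that phosphorylates cofilin, had 3701 ± 203 normalized counts in siControl and 691 ± 172 with siADAR1 #1 (log2FC -2.44 ± 0.17, limma, adjusted p = 0.00167), but 4423 ± 44.4 with siADAR1 #2 (log2FC 0.26 ± 0.17, adjusted p = 0.309). SSH1, a phosphatase that reverses this step, had 5976 ± 381 in siControl and 2917 ± 38.7 with siADAR1 #1 (log2FC -1.03 ± 0.11, adjusted p = 0.00259), and 6901 ± 44.6 with siADAR1 #2 (log2FC 0.21 ± 0.11, adjusted p = 0.187). CFL1, which encodes cofilin, is outside the naming rule and is given after its values were seen. It fell from 43050 ± 2185 to 12733 ± 3965 with siADAR1 #1 (log2FC -1.79 ± 0.19, limma, adjusted p = 0.00267). With siADAR1 #2 it had 29455 ± 818 (log2FC -0.55 ± 0.19, adjusted p = 0.0658). FARP1, an exchange factor related to the plexin A partner FARP2, also fell with siADAR1 #1 (log2FC -1.66 ± 0.12, adjusted p = 0.00167) and had a log2FC of -0.03 ± 0.12 with siADAR1 #2. DPYSL5, of the collapsin response mediator family, fell from 847 ± 157 to 144 ± 51.9 with siADAR1 #1 (log2FC -2.57 ± 0.27, adjusted p = 0.00267) and 272 ± 21.8 with siADAR1 #2 (log2FC -1.62 ± 0.27, adjusted p = 0.00377).

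With siADAR1 #2, the small GTPases RAP1B and RHOA fell. RAP1B, a substrate of the plexin GTPase-activating domain, had 8732 ± 963 normalized counts in siControl, 9812 ± 112 with siADAR1 #1 and 3213 ± 34.3 with siADAR1 #2 (log2FC -1.44 ± 0.11, limma, adjusted p = 0.000338). RHOA, which drives contraction of the actin cytoskeleton, had 22564 ± 2128.5, 23361 ± 1064 and 9912 ± 550.0 (log2FC -1.18 ± 0.11, adjusted p = 0.000477). RANBP9, a scaffold that binds plexin A, had 4955 ± 458, 5447 ± 29.9 and 2541 ± 156 (log2FC -0.96 ± 0.12, adjusted p = 0.00112). The siADAR1 #1 libraries of RAP1B and RANBP9 lay above siControl, with log2FC values of 0.17 and 0.14 that did not pass the test (adjusted p = 0.346 and 0.465). FYN, a Src-family kinase that acts downstream of SEMA3A, rose with each siRNA, from 353 ± 29.7 to 731 ± 123 (log2FC 1.04 ± 0.19, adjusted p = 0.0112) and 1109 ± 187 (log2FC 1.64 ± 0.19, adjusted p = 0.000941). Its call with siADAR1 #1 was lost without siControl replicate 1 (adjusted p = 0.0684) or replicate 2 (0.0781) and without a trend (0.0525).

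**Figure D4:**
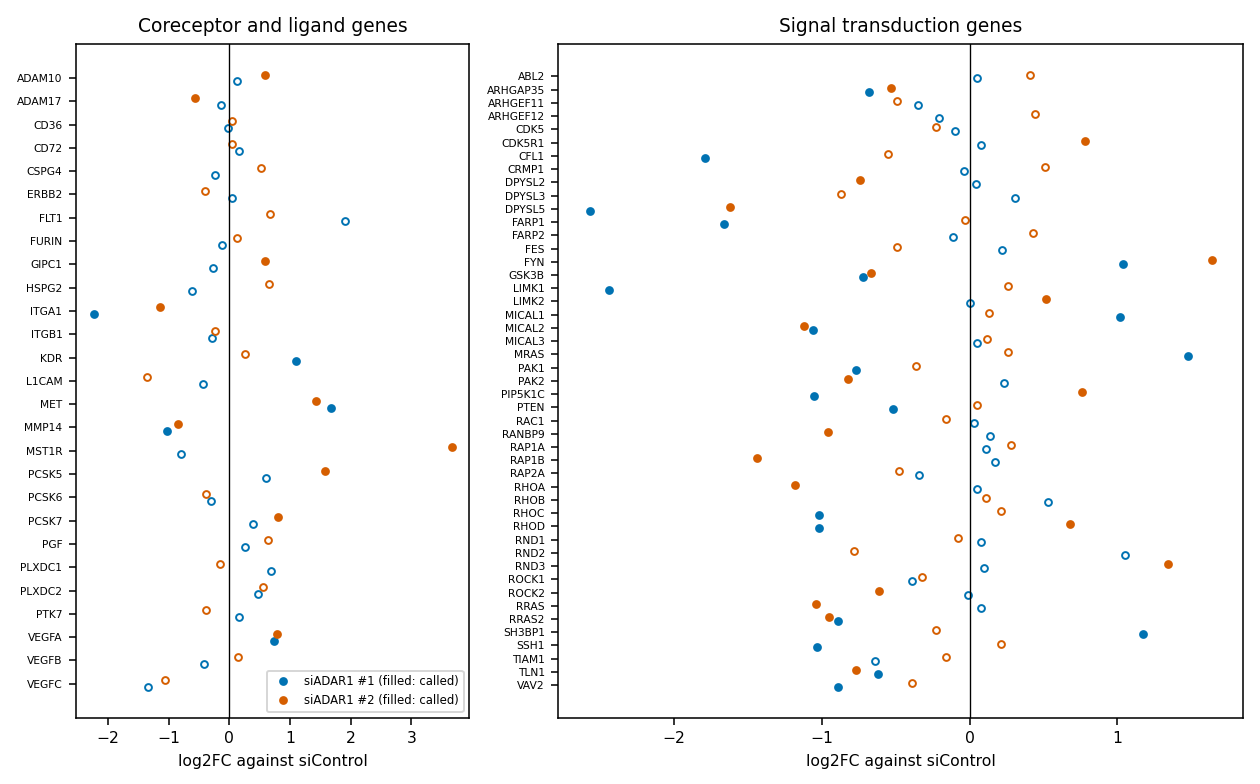
Log2FC against siControl of the 27 coreceptor, ligand and protease genes (left) and the 47 signal transduction genes (right) that were tested, in blue for siADAR1 #1 and orange for siADAR1 #2, with filled points for called genes. MET lies on the higher side with each siRNA, MST1R is at 3.66 with siADAR1 #2, and LIMK1 is at -2.44 with siADAR1 #1 and 0.26 with siADAR1 #2.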

How the data were processed

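Adapters were trimmed by the authors with Atropos, and reads on known genes (GRCh38) were counted with featureCounts in bcbio-nextgen. Salmon was run in parallel. DESeq2 was used for normalization, for which the authors preferred gene counts that Tximport derived from Salmon. The paper does not say which of these counts the deposited values hold. The deposited table holds log2 values after a variance-stabilizing transformation, which the authors applied to counts scaled by size factors. Undoing this step gave whole numbers for 100% of values (tolerance 0.1), which were taken as reads and used for levels, and 0 columns stayed unused. Symbols came from a reference list of gene names (57830 identifiers matched, 503 did not). Gene types, positions and exon lengths came from GENCODE 44.

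Tests were run on the deposited values with limma 3.58.1 in R 4.3.3 (lmFit, eBayes with trend, two-sided, all 6 libraries) and Benjamini-Hochberg adjustment over 20858 genes whose mean passed a filter set at 10 (a normalized count of 7.617). Calls needed an adjusted p under 0.05 and a log2FC beyond 0.5. The steps were tested on simulated data. Every member is named, and of each pathway list up to 4 called genes per siRNA with the smallest adjusted p. Members and lists were chosen with earlier results of these data known. Alternatives were no filter, a filter at 50, median centring, quantile normalization, log2 of the normalized count plus 1, eBayes without trend, robust eBayes, voom on whole reads, only the 4 libraries compared, a replicate block, and each library left out.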

Additional observations from a re-analysis of the deposited data

Results flagged for a closer look

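For 12 of the tested members and pathway genes named by rule, the libraries of siADAR1 #1 and those of siADAR1 #2 lay on opposite sides of both siControl libraries. The difference between the siRNAs was not tested, since the family was chosen on that contrast. At 2 libraries per group such a split rests on 6 values per gene. The share of all genes tested with such a split was not counted, and the pathway genes were named for their small adjusted p-values. The 12 genes are therefore a description and not a trait of the family. Among the ligands, the log2FC with siADAR1 #1 and siADAR1 #2 was -3.43 and 1.44 for SEMA3A, -0.15 and 2.33 for SEMA3C, -1.36 and 1.22 for SEMA3E, and -1.21 and 0.62 for SEMA6A. Of these, SEMA3A was called with siADAR1 #1 and SEMA3C with siADAR1 #2. Among the receptors it was -0.06 and 1.46 for PLXNB1 and 0.28 and -1.18 for PLXNC1, both called with siADAR1 #2. In the pathway lists it was -0.27 and 0.59 for GIPC1, -0.80 and 3.66 for MST1R, 0.14 and -0.96 for RANBP9 and 0.17 and -1.44 for RAP1B, all called with siADAR1 #2. LIMK1 (-2.44 and 0.26) and SSH1 (-1.03 and 0.21), which act on cofilin in opposite directions, were called with siADAR1 #1. In these 12 genes the smaller of the paired values did not pass the test, and for SEMA3C and PLXNB1 its sign turned under another scaling. Outside that rule, RHOD (-1.02, adjusted p = 0.015, and 0.68, adjusted p = 0.04) and PIP5K1C (-1.05, adjusted p = 0.00459, and 0.76, adjusted p = 0.00633) split in the same way and were called by limma in opposite directions; they are named here after their values were seen. RHOD was called in 13 and 11 of 17 settings, and lost its calls without siControl replicate 1 (adjusted p = 0.113 and 0.0892) or replicate 2 (0.0595 and 0.201), without siADAR1 #1 replicate 1 (0.062), and without siADAR1 #2 replicate 1 or replicate 2 (0.147 and 0.114). PIP5K1C was called in 16 settings of each comparison, and was lost with siADAR1 #1 without siControl replicate 1 (0.0545) and with siADAR1 #2 without siADAR1 #2 replicate 1 (0.0517). In the pathway lists HSPG2, PTK7, ARHGEF12, PAK2, DPYSL2 and SH3BP1 also split in this way, but none of them was called with both siRNAs. SEMA4A and SEMA5B, which were not tested, split likewise, with at most 13 and 7 reads per library.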

How the results depend on the processing

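Over 16 alternatives, 792 values for the members other than SEMA3F were recomputed: 708 kept their direction and side of the threshold, 51 lost a call, 17 gained a call and 16 changed sign, and the cause was not tested. Without a trend in eBayes, the family had 2 calls with siADAR1 #1 (NRP1 and SEMA6B), and with siADAR1 #2 it lost SEMA4B, SEMA4D, SEMA7A and PLXNA2 (adjusted p = 0.0531, 0.091, 0.0791 and 0.0634); the coreceptor list had 3 and 6 calls with the respective siRNAs, and the signal transduction list 10 with siADAR1 #1. Leaving out 1 library in turn gave 2 to 9 and 5 to 14 calls for the family, 2 to 5 and 3 to 10 for the coreceptor list, and 7 to 20 and 13 to 21 for the signal transduction list. The share of all genes called under the alternatives was not counted, so these counts do not tell the family or lists from other genes. A filter at 50 left 22 members and no filter 31. Median centring moved the median log2FC of all genes with siADAR1 #1 by 0.145, from -0.024 to 0.121, and turned PLXNB1 to 0.08, SEMA4B to 0.04 and SEMA4G to 0.05. Quantile normalization turned PLXNB1 to 0.12 and SEMA3C to 0.02 with siADAR1 #1, and PLXNA3 to 0.13, FARP1 to 0.13 and SEMA5A to -0.07 with siADAR1 #2. SEMA4D with siADAR1 #2 was not called with no filter (adjusted p = 0.0555). With 1 library left out, the log2FC with siADAR1 #1 of SEMA3B ran from -0.08 to 0.41, of SEMA4B from -0.61 to 0.40 and of SEMA5A from -2.46 to 0.45, and with siADAR1 #2 that of PLXNA3 from -0.18 to 0.13, of PLXNB2 from -0.10 to 0.43, of PLXNB3 from -0.75 to 0.32 and of SEMA5A from -1.45 to 1.47. That of FARP1 with siADAR1 #2 ran from -0.12 to 0.06, and that of RHOA with siADAR1 #1 from -0.04 to 0.15. None of these signs belonged to a called value. SEMA3F, with no test, ran from -0.51 to 0.09 with siADAR1 #2. Depth limits the members with under 20 reads, and 2 libraries per condition limit the rest.

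With the replicate number as a term (replicate block), the family had 10 calls with siADAR1 #1, which added SEMA3E and SEMA6A, and 14 with siADAR1 #2, which added SEMA3E. No other call of a member changed. Libraries with the same number deviated together with correlations of 0.106, 0.110 and 0.162 over 20858 genes between the 3 pairs of groups. The labels do not say what the numbers tie, and whether they pair the libraries was not settled with 2 numbers.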

Other observations

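SEMA5A was high in 2 libraries of different groups, with 78 reads in siControl replicate 1 and 62 in siADAR1 #2 replicate 1 against 8 to 17 in the other 4. CDH1, which encodes E-cadherin and is among the epithelial markers, had 193 and 173 reads in those 2 libraries against 25 to 53 in the others. These genes were named after its values were seen, and no test was made.

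The antisense genes of the family had few reads. SEMA6A-AS1 had 8 and 18 reads in siControl, 0 and 5 with siADAR1 #1, and 16 and 8 with siADAR1 #2. PLXNB3-AS1 had 2 to 10 reads, SEMA3B-AS1 0 to 3 and SEMA6A-AS2 0 to 2 per library, and SEMA5A-AS1 was at 0 in all 6. SEMA3F-AS1 was the antisense gene that passed the filter.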
